A study of Mus musculus with 6 samples.

Results

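The genes described here encode collagen chains, laminin chains and integrin subunits, the building blocks of the extracellular matrix and the main receptors that hold cells to it. They were chosen by symbol: every gene with a collagen, laminin or integrin name that was measured by at least 1 probe set carrying exactly 1 gene symbol, without Col1a1, Col1a2, Col3a1 and Itgam. The rule gave 56 genes, read by 84 probe sets, of 8251 named genes on the array. They comprise 28 collagen chains, 9 laminin chains, 18 integrin subunits and Itgb1bp1, which matches by name only and encodes a protein that binds an integrin tail. Where several probe sets read a gene, the one with the highest mean over all arrays stands for it.

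The arrays measured total RNA from the hippocampus of 6 mouse samples in a study of mice that overexpress HuD, a neuronal RNA-binding protein. All 6 samples carry the same label, hippocampus, and none is named as an overexpressor or a control in the labels, which give no strain, age, sex, promoter or pooling either. The samples were therefore left without a group, carry here the number given in each title, and are neither averaged as replicates nor tested against each other, so no difference below has a replicate check. A further, unexplained title code reads 2 in sample 2 and 1 elsewhere.

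Collagens are built from chains wound into triple helices. Collagen IV forms the sheet of basement membranes, fibrillar collagens form fibres, collagens of the FACIT group sit on fibre surfaces, and collagen VI forms beaded filaments. Laminins are trimers of an alpha, a beta and a gamma chain and the other main polymer of basement membranes, while integrins are alpha-beta pairs that bind matrix outside the cell and the actin cytoskeleton inside it. In the hippocampus, basement membranes surround the blood vessels and underlie the pia, much of the fibrous matrix belongs to meninges and vessel walls, and integrins are found on neurons, glia, vessel cells and leukocytes.

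Signals are the deposited intensities, on a linear scale. For ranges, signals were divided by the median of their array (59.9 to 63.3) and put on a log2 scale, so that 0 is the array median, after values under 0.2 of the median were set to 0.2. Expressed means here that the median of a gene's 6 log2 values exceeded 0. The range is the highest minus the lowest sample on that log2 scale, and the fold is the same on the linear scale. Detection calls were not used here, so a value under the array median is not shown to be above background. Levels of different genes are compared only through the array median and within summed marker signals, where brighter genes weigh more. Neither allows for differences in brightness between probe sets.

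The 3' to 5' signal ratio of the control transcripts, a measure of RNA integrity, was between 1.11 and 1.27 for beta-actin, and for pyruvate carboxylase between 1.57 in sample 2 and 3.56 in sample 3. Marker genes of the labelled tissue were present: 9 of 9 measured neuronal, 9 of 9 astrocyte and 7 of 8 myelin genes were expressed, the widest being Camk2a (3.51-fold), Fgfr3 (5.07-fold) and Ugt8a (2.70-fold). The widest thalamus and habenula marker was Lef1 (2.07-fold, 5 of 9 expressed), and of 3 red cell genes only Hba-a1 was expressed (1.49-fold). Fewer cells of a type and less RNA per cell cannot be told apart in such bulk samples.

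Few of the matrix and adhesion genes reached the middle of the array. Of the 56 genes, 20 were expressed (35.7%), against 58.6% of all named genes, and 33 had all 6 values under the array median (58.9%, against 36.3%). By class, 10 of 28 collagens (35.7%), 2 of 9 laminins (22.2%) and 7 of 18 integrins (38.9%) were expressed, with Itgb1bp1 as the remaining gene. The filter divides a continuous scale: Col6a2 (median 0.11 on the log2 scale) and Col18a1 (0.16) lay just inside it, Col26a1 (-0.02) and Col7a1 (-0.06) just outside. All 6 values lay above the array median for 16 of the 56 genes (28.6%, against 53.6% of all named genes). Among the 20 expressed members the exceptions were Col9a1, Col18a1, Col6a2 and Itgax.

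**Figure D1:**
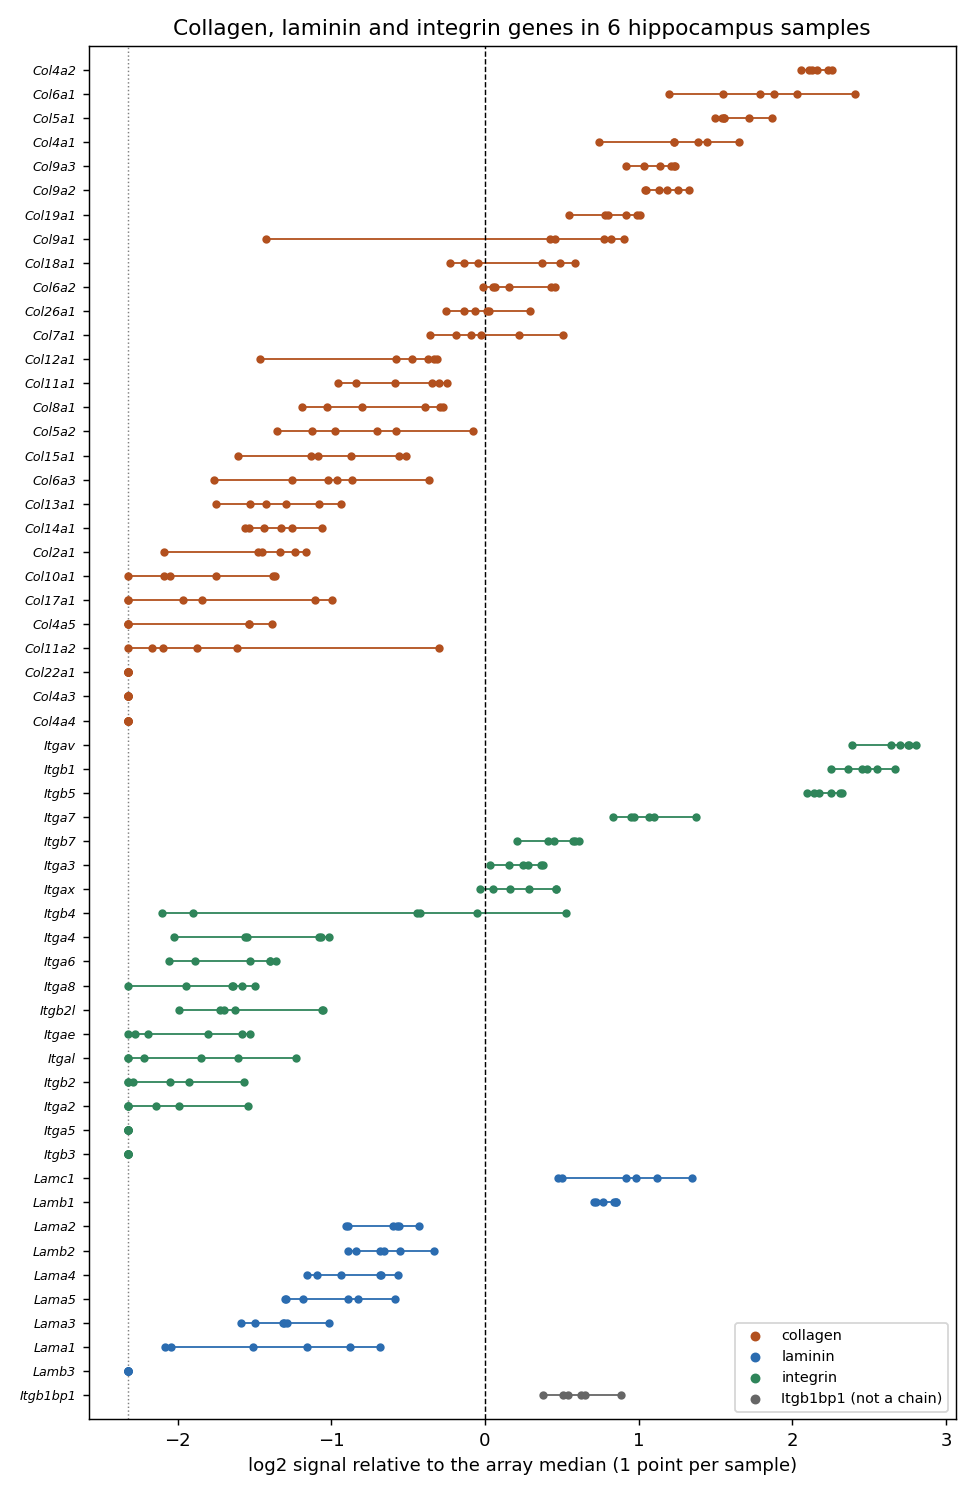
Level of each of the 56 genes on the log2 scale relative to the array median (x axis), with 1 point per sample, a line from the lowest to the highest sample, and colours for the class. The dashed line is the array median and the dotted line the floor at 0.2 of it; 20 genes have their median to the right of the dashed line, and 6 lie at the floor in all samples.

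The expressed members differed between samples about as much as other expressed genes. Their median range was 0.44 (1.35-fold), against 0.40 (1.32-fold) for all 4838 expressed genes. Of the 20, 2 had a range over 1, that is, a highest sample over 2 times the lowest (10%, against 4.2% of all expressed genes), and these were Col9a1 and Col6a1. The count was 1 without sample 1, sample 2 or sample 4, against 3.12%, 3.63% and 3.16% of all expressed genes. A fold over 1.5 was found for 5 of the 20 (25%, against 23.7%), which were those 2 genes, Col4a1, Lamc1 and Col18a1. By class these were 4 of 10 collagens (40%) and 1 of 2 laminins (50%), and 0 of 7 integrins exceeded 1.5-fold on the probe set used. Further probe sets above the array median did so for Itgav (1.70-fold) and Itgb5 (1.52-fold). Both members over 2-fold are collagens (20% of 10). Among expressed genes with a median from 0 to 1 the median range was 0.48 for 10 members and 0.53 for all 1385 genes, and above 1 it was 0.39 for 10 members and 0.36 for all 3453 genes.

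**Figure D2:**
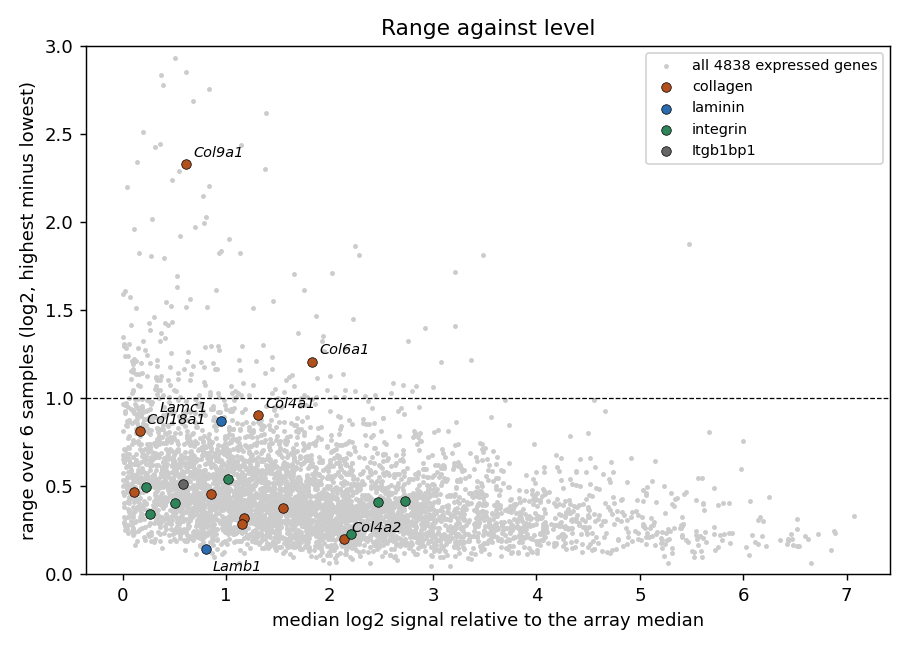
Range over the 6 samples (y axis, log2) against the median level relative to the array median (x axis, log2) for all 4838 expressed genes in grey and the 20 expressed members in colour. Col9a1 and Col6a1 lie above the dashed line at a range of 1; 4 other genes lie beyond the upper end of the axis at 3.

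Sample by sample, the members were seldom highest in sample 3. After scaling, 1 of the 20 (Itga7) had its highest value there (5%), against 31.1% of all expressed genes, and 5 had their lowest value there (25%, against 11.1%): Col4a1, Col5a1, Col19a1, Itgb5 and Itgb7. The share for all genes depends on scaling, and sample 3 has the lowest array median. With quantile normalization it was 19.5% highest and 16.3% lowest in sample 3, with 1 and 6 members, and with no further scaling 19.1% and 17.7%, again with 1 and 6 members. Without sample 2 or sample 4 the number of members highest in sample 3 was 2, against 35.6% and 33.9% of all expressed genes. Without sample 4 the number lowest there was 9, against 13.3%. The pyruvate carboxylase and transferrin receptor ratios were highest in sample 3 (3.56 and 3.47), and the part of RNA integrity in this pattern was not tested. Samples 1 and 4 each held the highest value of 6 members (30% each, against 17.3% and 12.6% of all expressed genes). Samples 2, 5 and 6 held the highest value of 3 (15%), 2 (10%) and 2 (10%) members, against 15.6%, 12.1% and 11.4%. The lowest value fell in samples 1, 2, 4, 5 and 6 for 3, 2, 5, 3 and 2 members (15%, 10%, 25%, 15% and 10%), against 21.6%, 11.6%, 20.7%, 20% and 15%. The median deviation of the 20 genes from their own medians was 0.06, -0.01, -0.10, 0.01, -0.03 and 0.05 in samples 1 to 6.

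**Figure D3:**
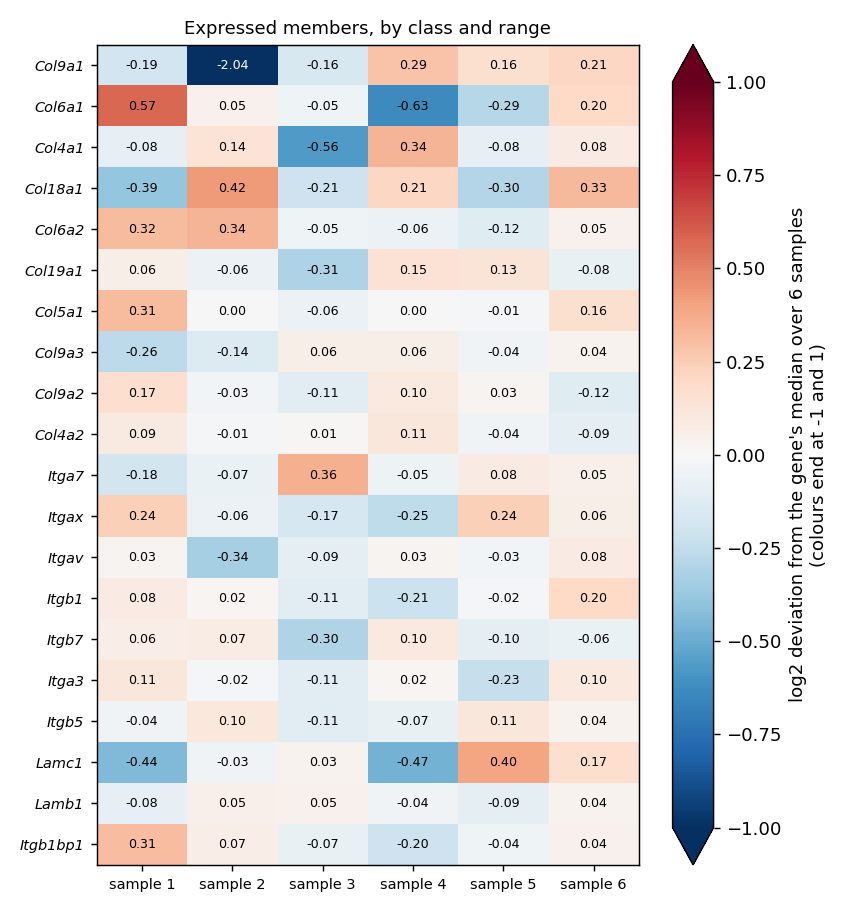
Log2 deviation of each expressed member (rows, ordered by class and then by range) from its own median over the 6 samples (columns), with the value printed in each cell. Col9a1 stands at -2.04 in sample 2, Col6a1 runs from 0.57 in sample 1 to -0.63 in sample 4, and the integrins stay between -0.34 and 0.36.

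Collagen IX held the widest of the expressed members by measured range, Col9a1, which with low values counted at the array median was narrower than Col6a1 (1.87-fold against 2.31-fold). The gene encodes the alpha-1 chain of this FACIT collagen, known from cartilage, where it coats collagen II fibrils. It had signals of 84.1, 22.9, 82.3, 118, 108 and 111 in samples 1 to 6. Sample 2 alone was low, and the other 5 lay within 1.397-fold of each other. The measured fold was 5.02 (range 2.33), and the value of sample 2 was under the array median. Col9a2 had signals of 158, 134, 124, 151, 143 and 129 in samples 1 to 6 (1.22-fold), and Col9a3 had 118, 126, 141, 149, 139 and 146 (1.25-fold). Neither was lowest in sample 2. Sample 2 is also the sample with the differing title code and with the lowest beta-actin, Gapdh and pyruvate carboxylase ratios (1.11, 0.79 and 1.57), whose part in the value was not tested. Of the listed cartilage markers, the 3 collagen IX genes were the only ones expressed among 10 measured, and Acan, Col2a1, Col10a1, Col11a1, Col11a2, Matn1 and Matn3 lay under the array median.

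Col9a1 is shown with its start regions because it has a pair of annotated starts 17593 bases apart on chromosome 1, which are known to give a long and a short form, and the array does not say which form its probe set reads. The windows run from 250 bases before to 50 after each start (RefSeq, GRCm38.p6), 5′ to 3′ on the plus strand, with capitals for the GC box GGGCGG, the CCAAT box or the TATA box (TATAAA) on either strand. The upstream window holds none of these and the downstream window holds CCAAT once.
Col9a1 upstream start, chr1:24177360-24177659, plus strand: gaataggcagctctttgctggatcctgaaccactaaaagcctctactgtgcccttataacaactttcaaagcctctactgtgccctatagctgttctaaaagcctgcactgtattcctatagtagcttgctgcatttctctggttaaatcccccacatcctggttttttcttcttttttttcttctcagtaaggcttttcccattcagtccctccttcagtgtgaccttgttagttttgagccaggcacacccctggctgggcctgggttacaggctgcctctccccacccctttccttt
Col9a1 downstream start, chr1:24194953-24195252, plus strand: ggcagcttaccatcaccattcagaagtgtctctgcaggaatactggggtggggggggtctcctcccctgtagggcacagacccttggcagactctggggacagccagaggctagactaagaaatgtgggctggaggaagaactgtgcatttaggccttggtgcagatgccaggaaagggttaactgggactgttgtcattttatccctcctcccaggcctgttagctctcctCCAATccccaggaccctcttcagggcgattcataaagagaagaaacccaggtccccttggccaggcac

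Collagen VI followed a different order of samples. Col6a1, the alpha-1 chain, had signals of 333, 226, 207, 145, 184 and 257 in samples 1 to 6, a fold of 2.31 (range 1.21) with all values above the array median. Samples 1, 6 and 2 were the highest and sample 4 the lowest. A dimmer Col6a1 probe set, whose name marks probes shared within a sequence family, was also highest in sample 1 (28.5). Its other values, 5.45 to 11.8, were under the floor, so it gives no order for the other samples. With both probe sets averaged Col6a1 was not expressed. Without sample 1 the fold was 1.78 and without sample 4 it was 1.82. Col6a2, the alpha-2 chain, had 84.5, 84.0, 62.7, 65.7, 62.6 and 70.1, a fold of 1.38, and was high in samples 1 and 2 and lower in the rest. Its highest sample was 2 after scaling by the median and 1 without further scaling. Col6a3, the alpha-3 chain, was under the array median in all samples, with its highest signal (48.7) in sample 1 and its lowest (18.1) in sample 2. Col6a1 and Col6a2 are neighbours on chromosome 10 among protein-coding genes.

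Markers of meninges and fibroblasts had their highest summed signal in the same 3 samples as Col6a1. Of 14 such genes measured, 8 were expressed, while Lum, Ogn, Fmod, Aldh1a2, Slc22a6 and Col3a1 were not. Their median deviation was 0.36, 0.31, -0.17, -0.15, -0.15 and 0.26 in samples 1 to 6. Summed over the 14, the signal was 6552, 7369, 3735, 4230, 3394 and 6232. Its largest part was Ptgds, a prostaglandin D synthase of meninges and choroid plexus, at 1317 in sample 5 to 4699 in sample 2, and the list holds Col1a1, Col1a2 and Fn1, which are matrix genes themselves. Their part in the collagen VI values was not tested. Of the interstitial collagens that the rule leaves out, which form fibres in tissues such as skin, the expressed Col1a1 and Col1a2 varied less than Col6a1. Col1a1 had a fold of 1.49 and was highest in sample 1 (168) and lowest in sample 4 (113). Col1a2 had a fold of 1.12 on a probe set with a marked name (541 to 592), and was not compared between probe sets. Col3a1, under the array median in all samples, ran from 14.7 in sample 3 to 45.0 in sample 6 (2.93-fold).

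**Figure D4:**
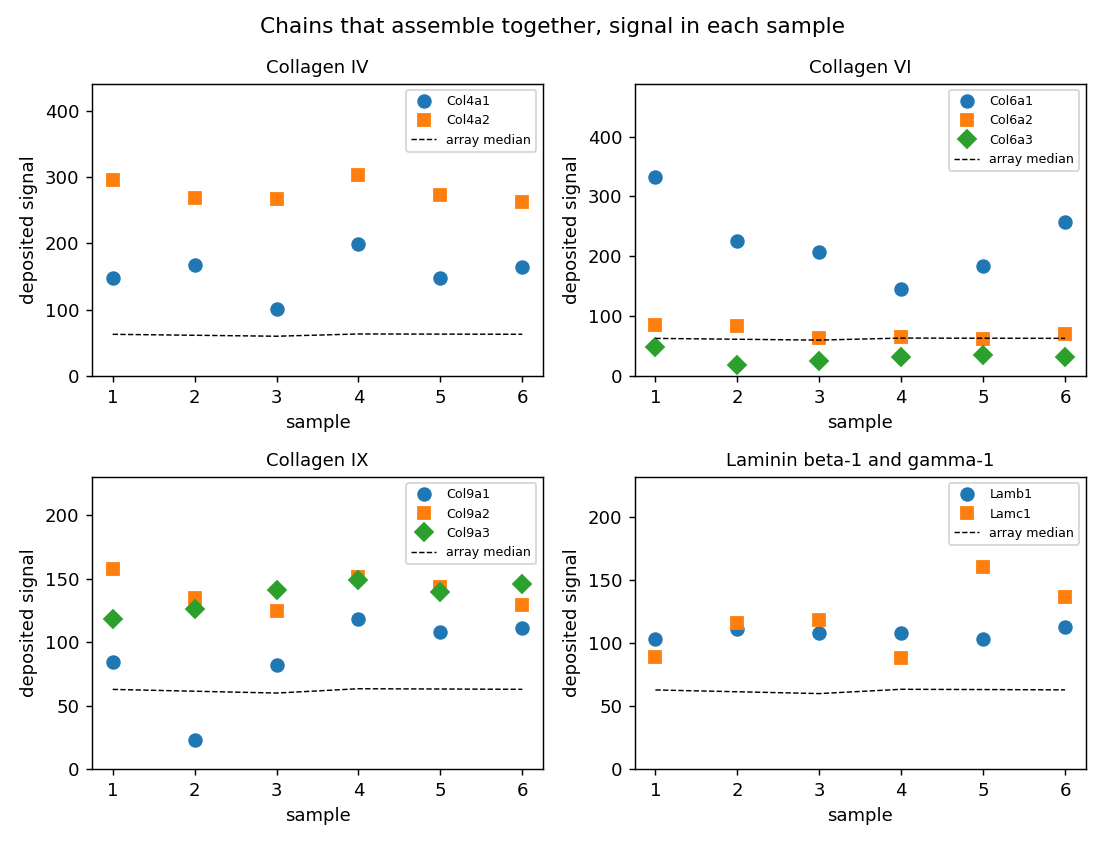
Deposited signal (y axis, linear, from 0) in samples 1 to 6 (x axis) for the chains of collagen IV, VI and IX and for laminin beta-1 and gamma-1, 1 point per sample, with the array median as a dashed line. Col4a1 has a fold of 1.87 and Col4a2 of 1.15, and Col9a1 stands under the array median in sample 2 only; Col6a3 lies under it in all samples.

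Collagen IV, the network of every basement membrane, was represented by its 2 common chains, and they varied unequally. Col4a1 had signals of 147, 167, 100.4, 199, 148 and 165 in samples 1 to 6 (1.87-fold, range 0.91). Sample 3 was the lowest, and without it the fold was 1.34. Col4a2 had 295, 269, 267, 303, 272 and 262 (1.15-fold, range 0.20), in the narrowest 8.87% of expressed genes. Both were highest in sample 4, by 0.20 for Col4a1 and 0.02 for Col4a2 over the next sample on the log2 scale. Each was read by 1 probe set. The other chains measured, Col4a3 and Col4a4 of kidney basement membrane and Col4a5, had signals from 2.08 to 24.0, all under the array median.

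The start regions of Col4a1 and Col4a2 are shown because the genes lie head to head on chromosome 8 and share a start region while their signals varied unequally. In RefSeq (GRCm38.p6) the starts are 21 bases apart on opposite strands, and the windows share 78 bases. Capitals mark GGGCGG or CCAAT on either strand, TATAAA was not in these windows, and no matches overlap. The Col4a1 window holds 1 GGGCGG and 1 CCAAT, and the Col4a2 window 3 and 1. The GGGCGG of the Col4a1 window lies in the shared bases and is the same stretch as the last GGGCGG of the Col4a2 window. Each is given 5′ to 3′ on its own strand.
Col4a1, chr8:11312777-11313076, minus strand: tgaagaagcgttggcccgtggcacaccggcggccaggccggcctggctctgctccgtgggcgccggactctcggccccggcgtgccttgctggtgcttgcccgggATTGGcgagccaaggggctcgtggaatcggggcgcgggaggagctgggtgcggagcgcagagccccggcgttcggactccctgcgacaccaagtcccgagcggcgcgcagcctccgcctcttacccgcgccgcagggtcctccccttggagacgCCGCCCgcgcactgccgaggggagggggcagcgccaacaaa
Col4a2, chr8:11312555-11312854, plus strand: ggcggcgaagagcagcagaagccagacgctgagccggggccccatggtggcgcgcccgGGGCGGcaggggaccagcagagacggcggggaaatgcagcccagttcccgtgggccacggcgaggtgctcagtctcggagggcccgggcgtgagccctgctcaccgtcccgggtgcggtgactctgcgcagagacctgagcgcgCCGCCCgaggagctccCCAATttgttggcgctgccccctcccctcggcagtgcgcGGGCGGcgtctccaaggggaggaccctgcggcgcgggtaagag

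Endothelial markers split in sample 3, where Col4a1 was lowest. Of 13 measured, 5 were expressed, while Pecam1, Kdr, Tek, Tie1, Cdh5, Abcb1a, Vwf and Emcn were not. The signal summed over the 13 lay between 1056 (sample 3) and 1339 (sample 6), and the median deviation of the 5 expressed markers was 0.11, -0.10, -0.29, 0.00, 0.01 and 0.11 in samples 1 to 6. After scaling, Cldn5, Flt1 and Eng were lowest in sample 3, while Ramp2 was highest there (206) and Slc2a1 was lowest in sample 1 (114). The widest of them, Flt1, a receptor for vascular endothelial growth factor, had 53.2 in sample 3 and 97.5 in sample 1 (1.75-fold, or 1.55-fold with the value under the array median counted at it). Col4a1 was highest in sample 4, where these markers were near their median. Their part in the Col4a1 value was not tested.

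**Figure D5:**
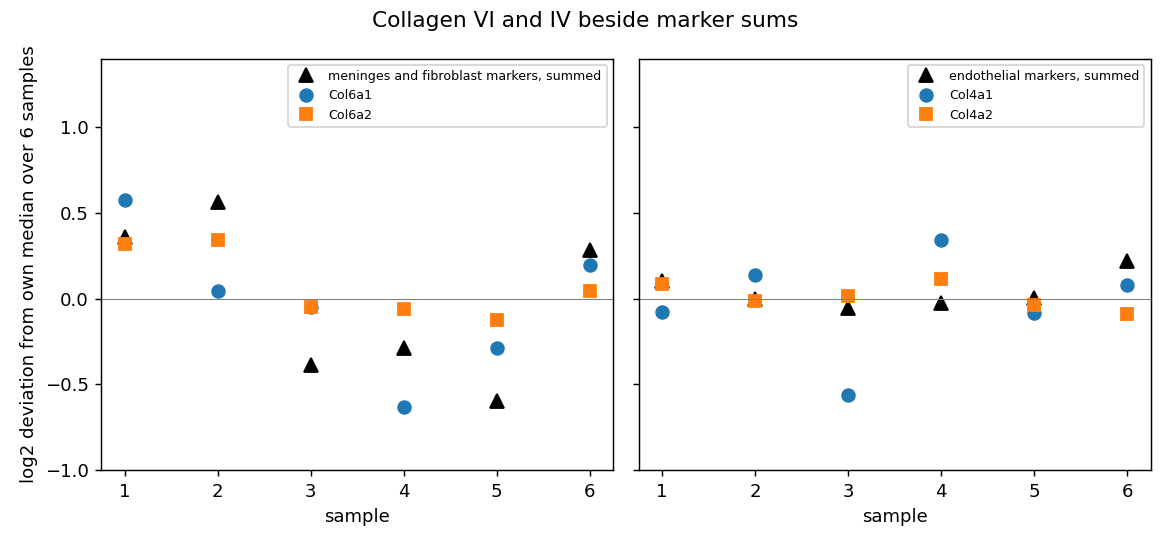
Log2 deviation from the own median over 6 samples (y axis) in samples 1 to 6 (x axis) for Col6a1 and Col6a2 beside the summed meninges and fibroblast markers (left), and for Col4a1 and Col4a2 beside the summed endothelial markers (right). Samples 1, 2 and 6 hold the highest values of Col6a1, Col6a2 and the meninges sum, and sample 3 the lowest of Col4a1 and of the endothelial sum.

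Col18a1, a basement membrane collagen with heparan sulphate chains whose end fragment is endostatin, split the samples close to the array median. It had signals of 53.7, 92.2, 58.1, 81.8, 57.5 and 88.3 in samples 1 to 6, a fold of 1.76, or 1.503 with its low values raised to the array median. Samples 2, 4 and 6 were high and samples 1, 3 and 5 low, with no value between 58.1 and 81.8. Without sample 2, 4 or 6 the gene was not expressed. Only 1 of its 5 probe sets was this bright. The other 4 had signals from 3.12 to 20.9, and of these 1 was also lowest in sample 1 and highest in sample 2 (1.70-fold), all under the array median. After scaling, the 6 expressed mural cell markers of 12 measured were each highest in sample 2, led by the smooth muscle gene Tagln (2.36-fold), with a summed signal of 972 there and 705 to 825 in the other samples. Acta2, Tagln and Myl9 were lowest in sample 4, where Col18a1 was high, and the sum there (741) was under that of sample 1 (791), where Col18a1 was lowest. The defining genes Pdgfrb, Myh11, Des, Cnn1, Abcc9 and Kcnj8 were under the array median, and the part of these markers in the Col18a1 values was not tested.

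The remaining expressed collagens, Col5a1 and Col19a1, had folds under 1.5. Col5a1, a chain of the fibrillar collagen that sets fibre diameter, had signals of 229, 180.3, 169, 186, 184 and 207 in samples 1 to 6 (1.30-fold), highest in sample 1, without which the fold was 1.17. A dimmer second probe set for Col5a1, at 8.39 to 50.7, was lowest in sample 1 instead, and with both averaged the range was 0.92. Col19a1, a FACIT collagen known from basement membrane zones and from hippocampal interneurons, had 119, 107, 87.7, 127, 126 and 108 (1.37-fold). Sample 3 was the lowest, and without it the fold was 1.17.

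Among the laminins, expression above the array median was found for 1 beta and the gamma chain and for none of the 5 alpha chains. Lamc1, the gamma-1 chain shared by most laminins, had signals of 89.0, 116, 118, 88.0, 160.4 and 136 in samples 1 to 6, a fold of 1.83. Samples 5 and 6 were high and samples 1 and 4 low. Lamb1, its usual beta partner, had 104, 111, 108, 108, 103 and 113, a fold of 1.10 that placed it in the narrowest 2.19% of expressed genes. Its highest sample was 2 after scaling by the median and 6 under the other scalings. These readings rest on probe sets whose names mark probes shared within a sequence family. The unmarked probe sets disagreed with them: for Lamc1 it lay between 3.39 and 19.96, and for Lamb1 between 27.7 and 65.3, with a fold of 2.23 and sample 4 highest. The other beta chains, Lamb2 of synapses and vessels and Lamb3 of skin, had signals of 33.8 to 48.7 and 7.06 to 11.1.

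The laminin alpha chains, which carry most of the binding sites for receptors, all stayed under the array median. Lama1 had 34.1, 27.5, 37.3, 14.96, 22.2 and 15.3, a fold of 2.63, with samples 4 and 6 the lowest. Lama2, the chain of glial and muscle basement membranes, ran from 32.0 to 45.5, Lama4 of vessels from 28.3 to 42.4, Lama5 from 24.3 to 41.8 and Lama3 of epithelia from 21.0 to 29.6. Whether these chains were detected at all cannot be read from the signals.

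The 7 expressed integrins had a median range of 0.41, against 0.46 for the 10 expressed collagens and 0.51 for the 2 laminins, differences that were not tested. Itgb1, the beta-1 subunit that pairs with most matrix-binding alpha subunits, had signals of 368, 343, 308, 302, 345 and 399 in samples 1 to 6 (1.33-fold). Sample 6 was the highest and samples 3 and 4 the lowest. A second Itgb1 probe set, at 106 to 134, was highest in sample 1 and lowest in sample 2 instead, with sample 4 (133) close to its highest. Itgav, the alpha-v subunit of the vitronectin receptors, had 423, 322, 374, 428, 410.3 and 439 (1.33-fold), with only sample 2 set apart, and a fold of 1.12 without it. Itgb5, a beta partner of alpha-v, had 283, 305, 256, 279, 316 and 299 (1.17-fold), and its second probe set (1.52-fold) was highest in sample 1 and lowest in sample 6. The probe sets of Itgb1 and Itgav are marked as shared within a sequence family. A second Itgav probe set above the array median, at 61.9 to 105, had a fold of 1.70 and was highest in sample 1. The unmarked Itgav probe set had signals of 18.7 to 38.6, under the array median, with a fold of 2.05 and sample 6 lowest.

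The other expressed matrix-binding subunits were Itga7 and Itga3, both laminin receptors. Itga7, best known from muscle, had 112, 119, 155, 124, 135 and 131 (1.45-fold), with sample 3 above the rest and a fold of 1.20 without it. Its second bright probe set, at 96.6 to 145, was highest in sample 5 instead. Itga3 had 81.5, 72.9, 66.9, 76.9, 64.5 and 80.8 (1.27-fold), and a fold of 1.16 without sample 5. A dimmer Itga3 probe set was highest in sample 3, with a fold of 2.25.

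Of the leukocyte integrins, Itgax and Itgb7 were expressed, while the subunits they pair with lay under the array median. Itgax, the alpha-X subunit of dendritic cells and microglia, had signals of 86.7, 68.6, 62.1, 62.0, 87.0 and 76.5 (1.41-fold). Samples 1 and 5 were high, and which of them was highest changed with the scaling. Its only known beta partner, Itgb2, lay under the array median at 9.49 to 21.2. Itgb7, the lymphocyte homing subunit, had 93.6, 91.9, 69.1, 96.6, 83.8 and 85.6 (1.32-fold, and 1.15-fold without sample 3), while its partners Itga4 (14.7 to 31.3) and Itgae (9.98 to 21.7) were under the array median. Itgal, another partner of Itgb2, lay at 7.27 to 26.8. A second Itgb7 probe set lay at 3.25 to 25.3. Of 14 microglia and macrophage markers measured 9 were expressed, led by Laptm5 (1.48-fold), and Ptprc, Itgam, Aif1, Fcgr3 and Fcer1g were not. Their summed signal lay between 2103 and 2271. Of 15 lymphocyte and granulocyte markers 1 was expressed, Cd4 (1.71-fold), while Cd3e, Cd79a and Ms4a1 were among those that were not. The part of these cells in the Itgax and Itgb7 values was not tested.

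Itgb1bp1, which binds the beta-1 tail and restrains activation of the integrin, had 116, 96.4, 85.2, 82.3, 91.9 and 96.8 (1.42-fold). Sample 1 was above the rest, and without it the fold was 1.21. A second unmarked probe set was also highest in sample 1, with a fold of 1.24, and the remaining one, marked as grouped, was highest in sample 2.

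The 36 members below the filter had a median range of 0.80, against 0.64 for all 3413 named genes below it, and such ranges mostly compare values not shown to be above background. The median levels were -1.39 and -1.73 on the log2 scale, and the floor narrows the ranges of the dimmest genes. The part of level in this difference was not tested. Itgb4, the beta-4 subunit that pairs with Itga6 on epithelia, was the widest, with signals of 16.9, 14.3, 86.5, 61.0, 46.5 and 46.9 in samples 1 to 6. Sample 3 alone lay above the array median, and the fold of 6.19 fell to 1.44 with lower values counted at that median. Itga6 ran from 15.2 to 23.9. Col11a2, a fibrillar collagen of cartilage, had 49.8 in sample 2 and 9.23 to 20.5 in the other samples. Col8a1, a short-chain network collagen of vessel walls, had 36.1, 26.9, 29.4, 48.2, 51.6 and 51.9, higher in samples 4, 5 and 6 than in samples 1, 2 and 3. The choroid plexus marker Ttr was also lowest in samples 1, 2 and 3 (20.5, 44.9 and 215) and had 1504, 482 and 1798 in samples 4, 5 and 6. Of 8 choroid plexus markers measured 3 were expressed, with summed signals from 327 to 2475, and their part in the Col8a1 values was not tested.

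The other members below the filter are named for completeness. Signals lay between 48.99 and 89.7 for Col7a1 of skin anchoring fibrils and between 50.2 and 77.4 for Col26a1, each straddling the array median. Without sample 2, 3 or 4 Col26a1 was expressed. Col5a2, Col11a1, Col12a1 and Col15a1 lay between 20.1 and 59.5, and Col2a1, Col10a1, Col13a1, Col14a1 and Col17a1 between 8.85 and 33.0. Itga2, Itga8 and Itgb2l lay between 4.48 and 30.3. Col22a1, Col4a3, Col4a4, Itga5, Itgb3 and Lamb3 were at the floor in all 6 samples, so no range can be given.

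Other genes of matrix assembly and adhesion, taken from lists, showed a like spread. Of 22 basement membrane and matrix partners measured 13 were expressed, with a median range of 0.37 and 0 over 1. The widest were Sparc, a collagen-binding glycoprotein (1.65-fold, highest in sample 3 at 318), and Vtn, vitronectin (1.64-fold, highest in sample 2 at 232). The laminin and collagen IV linkers Nid1 and Nid2 and the proteoglycan Hspg2 were not expressed. Among collagen-processing genes 10 of 13 were expressed (median range 0.53). Pcolce, an enhancer of procollagen cleavage, was the only one over 1, with 62.9 in sample 3 and 162 in sample 6 (2.46-fold), and P4ha1, a prolyl hydroxylase subunit, followed with 1.55-fold. The collagen chaperone Serpinh1 and the cross-linking enzymes Lox and Loxl1 were not expressed.

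Of 26 matrix proteases and inhibitors 10 were expressed (median range 0.44, 0 over 1), led by Reck, a membrane inhibitor of metalloproteases, with 1.84-fold, and Adam15 with 1.71-fold. Of 32 integrin adaptors, ligands and focal adhesion genes 25 were expressed (median range 0.39). Src, the kinase downstream of integrins, was the only one over 1, with 41.1 in sample 3 and 91.2 in sample 4 (2.10-fold, or 1.44-fold with sample 3 counted at the array median), and Madcam1, the ligand of Itgb7 integrins, ranged 1.78-fold. Of 14 laminin and collagen receptors outside the integrins 7 were expressed (median range 0.45, 0 over 1), led by the collagen receptor Ddr1 with 1.55-fold and the syndecan Sdc2 with 1.46-fold.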

How the data were processed

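The authors deposited a single table of probe-set intensity values, linear, with 12488 probe sets (66 controls) for 6 samples. How the arrays were scanned, summarized and scaled is not stated in the labels or headers. Trimmed of its lowest and highest 2%, every array had a mean of 150, and 0 of 15 pairs of columns were identical. Arrays have no read depth; with 6 arrays, precision is limited by their number.

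Gene symbols came from the platform annotation, and all 56 member identifiers matched RefSeq (GRCm38.p6) with the same symbol. The deposited intensities were divided by the array median over probe sets other than controls, set to at least 0.2 and put on the log2 scale. No test was made, since 0 samples have a group in the labels. The calculation was checked on simulated arrays, with differences larger than most reported here added to genes well above the array median. The check does not show how well the highest or lowest sample is recovered for dimmer members or smaller differences. Members and lists were chosen with earlier results of these data known. The rule for named genes took every expressed member, the other members in groups with their signals, the 2 widest expressed genes of each pathway list and the widest of each marker list. Nid1, Nid2, Hspg2, Serpinh1, Lox and Loxl1, and the markers that were not expressed, were named after their values were seen. The rule did not call for single-sample values of members below the filter. Those of Itgb4, Col11a2, Col8a1 and Lama1, among others, were picked out after they were seen. Python 3.11.15, pandas 2.3.3, numpy 2.4.6 and matplotlib 3.10.9 were used. Alternatives covered scaling, probe set, filter, floor, Itgb1bp1 and leaving out each sample.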

Additional observations from a re-analysis of the deposited data

How the results depend on the processing

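With the mean of all probe sets of a gene, 12 members were expressed (52.3% of all named genes were). Of the 12, 1 had a range over 1 (4.10% of all expressed genes did) and 0 were highest in sample 3 (31.1% were). The genes lost were Col18a1, Col5a1, Col6a1, Col9a3, Itga3, Itga7, Itgb7 and Lamc1, each of which has at least 1 dim further probe set. With unmarked probe sets only, 16 of 52 measured members were expressed, against 57.2% of named genes. Itgav, Itgb1, Lamb1 and Lamc1 were lost, so no laminin was expressed. With no filter all 56 members counted, their median range was 0.70 (0.46 for all named genes) and 12 had a range over 1 (12.9% of all named genes did), most on values under the array median. With all values required above that median, or with lower values counted at it, 1 member had a range over 1 (Col6a1). Of all expressed genes 2.04% and 2.58% did. Leaving out each sample in turn gave 1 to 2 members with a range over 1, against 3.12% to 3.78% of all expressed genes. Where sample 3 was kept, 1 to 2 members were highest there, against 33.7% to 37.1%, and 5 to 9 lowest, against 12.9% to 15.1%. Quantile normalization, no further scaling, unmarked probe sets only, no floor, chains only and, chosen after seeing the data, the probe set with the highest mean log2 value kept every count and the median range within 1.5 times of the reported value. The alternatives for the counts in sample 3 were also chosen after seeing the data. Of 20 expressed members 16 kept both their highest and their lowest sample under quantile normalization and no further scaling, and the exceptions were Col6a2, Col9a2, Itgax and Lamb1. Of 319 recomputed ranges of single members 297 stayed within 1.5 times. Many of these could not change, since a filter leaves the range of a gene as it is and 0 expressed members were under the floor. Leaving out a sample changes a range only where that sample is the highest or the lowest. Signals not shown to be above background limit the 36 dim members most.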

Other observations

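The highest and lowest samples were also compared between probe sets of the same gene, which was not done for genes other than the members. The 13 expressed members with several probe sets had 19 further ones, of which 6 lay above the array median. Of these 6, 1 (for Itgb1bp1) was highest in the same sample as the probe set used, and 0 were lowest in the same sample. That 1 was the only unmarked probe set among the 6. Without a share over all genes, these counts do not set the members apart.

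The start regions of the members in RefSeq (GRCm38.p6), 42 windows of 300 bases for 37 of the 56 genes, were rich in G and C. The median share was 59.2% of bases, against 52.7% over all 32851 windows. GGGCGG on either strand was in 54.8% of member windows and in 35.7% of all windows, CCAAT in 26.2% and 37.4%, and TATAAA in 9.52% and 13.6%. Among the 21 windows of expressed members (17 genes) GGGCGG was in 13, CCAAT in 7 and TATAAA in 0. Among the 21 windows of members below the filter (20 genes) they were in 10, 4 and 4. The same split was not made over all genes, so these counts do not set the members apart. These are counts of letters, not of sites.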
